A study of Mus musculus with 21 samples.

Results

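The 10 genes described here encode sensors, transcription factors, chaperones and a degradation factor of the unfolded protein response. They are Xbp1, Atf4, Atf6, Hspa5, Herpud1, Dnajb9, Ern1, Eif2ak3, Hyou1 and Creb3l3, taken by name from 21887 protein-coding genes of the RefSeq annotation of GRCm38.p6, the assembly that mm10 names. Each gene was examined over its annotated gene body plus 25 kb on each side, called its window, in lists of peaks from chromatin immunoprecipitation with sequencing (ChIP-seq). In all, 53 of the 27244 regions bound by C/EBPα in the study lay in these windows.

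The peaks came from primary hepatocytes perfused from livers of mice at postnatal day 90, on a C57/B6 and 129 mix. KO mice were Arid1a Fl/Fl; Alb-cre, and WT mice were Arid1a Fl/Fl, so both carried the floxed alleles and the Cre was present in KO mice only. Cre under the albumin promoter acts in liver cells of the hepatocyte lineage, and any cells of a perfused preparation in which it does not act keep the gene. C/EBPα, a transcription factor of differentiated hepatocytes, was mapped in 2 KO and 2 WT libraries, and H3K4me2, the dimethylated form of lysine 4 on histone H3 that marks promoters and enhancers, in 3 KO and 3 WT libraries. ARID1A, which belongs to the SWI/SNF complex that remodels chromatin, was mapped through the V5 tag in 1 library from V5-Arid1a mice, which has no replicate. The design asks where C/EBPα and H3K4me2 sit with and without ARID1A, and where ARID1A itself sits. Libraries are written KO1, KO2, WT1 and so on by genotype and replicate number within each target. The labels do not say that replicates came from separate animals, so the spread between them may be technical.

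When unfolded proteins build up in the endoplasmic reticulum (ER), sensors in its membrane start the unfolded protein response. IRE1α, encoded by Ern1, splices the mRNA of the transcription factor XBP1. PERK, encoded by Eif2ak3, phosphorylates a translation factor so that the transcription factor ATF4 is made, and ATF6 is cut at the Golgi to release its own transcription factor part. The targets include the chaperones HSPA5 (also called BiP), HYOU1 and DNAJB9, and HERPUD1, which serves the degradation of ER proteins. CREB3L3 (CREB-H) is a liver-enriched factor held in the ER membrane and released in the way ATF6 is. Hepatocytes secrete large amounts of plasma protein and carry a heavy folding load in the ER.

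The promoters of 6 members are shown because they show the range of C/EBPα occupancy at the starts of these genes. The promoter windows of 300 bases at Herpud1 and at the internal start of Creb3l3 lay wholly under C/EBPα peaks in all 4 lists, and the Dnajb9 window wholly in KO1, KO2 and WT1 and over 278 bases in WT2. The Hspa5 window was met by a peak in KO2 alone, the Eif2ak3 window by a peak in KO1 alone, and the Xbp1 window by none. The windows of Atf4, of Ern1 and of the outer start of Creb3l3, which are not shown, were also met by none. The sequences are the 250 bases before the annotated start, 5′ to 3′ on the strand of the gene, from RefSeq (GRCm38.p6). Capitals mark each match to the short motifs named below that lies wholly within the bases shown.
Xbp1: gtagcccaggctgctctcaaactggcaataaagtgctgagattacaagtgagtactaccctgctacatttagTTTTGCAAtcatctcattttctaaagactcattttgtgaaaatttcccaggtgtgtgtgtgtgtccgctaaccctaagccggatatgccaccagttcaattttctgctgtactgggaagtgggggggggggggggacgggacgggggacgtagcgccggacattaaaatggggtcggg
Herpud1: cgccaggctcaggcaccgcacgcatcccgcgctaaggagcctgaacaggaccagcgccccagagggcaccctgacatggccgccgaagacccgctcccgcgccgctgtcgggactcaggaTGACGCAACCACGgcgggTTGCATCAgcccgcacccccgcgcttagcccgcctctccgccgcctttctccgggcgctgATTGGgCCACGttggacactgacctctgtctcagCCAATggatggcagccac
Dnajb9: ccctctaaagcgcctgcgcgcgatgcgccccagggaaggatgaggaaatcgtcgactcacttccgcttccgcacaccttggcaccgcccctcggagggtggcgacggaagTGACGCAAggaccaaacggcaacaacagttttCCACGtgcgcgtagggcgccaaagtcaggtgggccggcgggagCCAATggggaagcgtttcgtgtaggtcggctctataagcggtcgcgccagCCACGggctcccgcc
Creb3l3: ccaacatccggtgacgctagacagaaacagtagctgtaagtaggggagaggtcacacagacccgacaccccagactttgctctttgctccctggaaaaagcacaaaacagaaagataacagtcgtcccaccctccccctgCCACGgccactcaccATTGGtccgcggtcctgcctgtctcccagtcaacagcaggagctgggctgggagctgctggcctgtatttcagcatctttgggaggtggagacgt
Hspa5: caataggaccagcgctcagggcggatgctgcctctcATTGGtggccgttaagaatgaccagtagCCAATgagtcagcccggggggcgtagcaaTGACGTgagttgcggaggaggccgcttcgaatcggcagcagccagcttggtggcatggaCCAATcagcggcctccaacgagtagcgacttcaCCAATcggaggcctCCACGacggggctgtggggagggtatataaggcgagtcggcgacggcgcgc
Eif2ak3: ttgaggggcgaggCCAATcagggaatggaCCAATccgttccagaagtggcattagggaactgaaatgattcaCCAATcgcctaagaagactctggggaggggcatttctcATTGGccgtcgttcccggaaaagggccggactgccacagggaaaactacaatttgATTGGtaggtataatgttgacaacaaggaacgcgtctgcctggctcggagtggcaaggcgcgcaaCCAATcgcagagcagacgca

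These sequences lie at chr11:5520391-5520640 for Xbp1, chr8:94386179-94386428 for Herpud1, chr2:34771840-34772089 for Hspa5 and chr6:70844265-70844514 for Eif2ak3, all on the plus strand. On the minus strand are chr12:44210069-44210318 for Dnajb9 and chr10:81092592-81092841 for the internal annotated start of Creb3l3. The promoter table, whose windows run 50 bases past the start, held 9 windows for 8 of the 10 members, with 2 starts for Creb3l3, and none for Atf6 or Hyou1. Motifs were searched on both strands over the 300 bases of each window, and a match is a description of letters, not a measured binding site.

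A C/EBP motif, TTGCNNAA, was found in the Xbp1 window alone, from 178 bases before the start, where the strand shown reads TTTTGCAA, the reverse complement, and 10.8% of all 32851 promoter windows hold that motif. TGATGCAA, a composite of C/EBP and ATF sites, was found in Herpud1 alone, from 112 bases before the start, where the strand shown reads TTGCATCA, the reverse complement, against 0.895% of all windows. TGACGCAA, searched after the sequences had been seen, was present in both Herpud1 and Dnajb9, 130 and 140 bases before their starts, against 0.49% of all windows. The short site CCACG, read by XBP1 and ATF6, was present in 6 of the 9 windows (32.8% of all windows), and CCAAT in 6 of the 9 (37.4% of all windows). CCAAT followed after 9 bases by CCACG is the ER stress response element, and it was found in Hspa5 alone, from 65 bases before the start, against 0.119% of all windows. ATTGG followed after 1 base by CCACG is the ER stress response element II, also searched after the sequences had been seen, and it was found in Herpud1 alone, 52 bases before the start, against 0.0365% of all windows. TGACGT, the core of the cAMP response element, was found in Hspa5 alone (7.51% of all windows), and TGACGTGG, the unfolded protein response element, in none of the 9 (0.676% of all windows). The CCACG and CCAAT matches include those inside both ER stress response elements, and TGACGTGG contains TGACGT.

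Peak numbers for C/EBPα were 16178 and 17781 in KO1 and KO2 and 17733 and 23646 in WT1 and WT2. The H3K4me2 lists ranged more widely, with 24908, 54544 and 175797 peaks in the KO libraries and 34849, 61246 and 49802 in the WT libraries, and covered 1.03% of the genome in KO1 and between 1.78% and 3.76% in the other 5. The KO3 list was made of short peaks, with a median of 429 bp, against 634 bp or more in the other 5. No read numbers come with the lists, so the depth behind each peak is unknown. A region without a peak had none called or retained in that list, and in a population of cells, occupancy in fewer cells and weaker occupancy per cell cannot be told apart. Peak lists do not show the deletion of Arid1a, so genotypes are as labelled. The preparation carried the H3K4me2 state of hepatocytes: all 8 hepatocyte genes examined (Alb, Ttr, Apoa1, Cps1, Serpina1c, Hnf4a, Cebpa and Tat) were marked at a gene end in all 6 lists. Of all protein-coding genes, 51% were so marked. None of 6 Kupffer cell and leukocyte genes, 4 endothelial genes and 4 stellate cell genes was marked in all 6, and 1 of 4 biliary genes was. Single lists marked 0 to 2 of the Kupffer cell and leukocyte genes, 0 to 3 of the stellate cell genes and 1 to 2 of the biliary genes. The 4 endothelial genes were all marked in KO2 and in WT2, the lists with the highest H3K4me2 coverage in 2 and 6 of the 10 windows described below. Their part in those values was not tested.

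C/EBPα occupancy near these genes was mostly shared between genotypes. Peaks of the 4 lists were merged into regions where they shared at least 1 bp. Lost regions are those with no peak in KO1 or KO2 and one in each of WT1 and WT2, and gained regions are the reverse. Kept regions have a peak in all 4 lists, and the rest are mixed. Of the 53 regions, 29 were kept, 3 were lost, 1 was gained and 20 were mixed, and across the genome 42.8% of regions were kept. The 3 lost regions were 3 of the 34 occupied in both WT lists, against 19.3% of such regions genome-wide, and the 1 gained region was 1 of the 32 occupied in both KO lists, against 5.27% genome-wide. Of the 20 mixed regions, 14 were in a single list, which was KO1 for 6, KO2 for 4, WT1 for none and WT2 for 4. Genome-wide shares of mixed and single-list regions were not counted, so that split is not read as particular to these genes. These counts rest on presence in lists and have no test of their own. Single libraries moved them: 7 regions were lost without WT1, and 5, 7 and 3 were gained without KO1, KO2 and WT2.

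**Figure D1:**
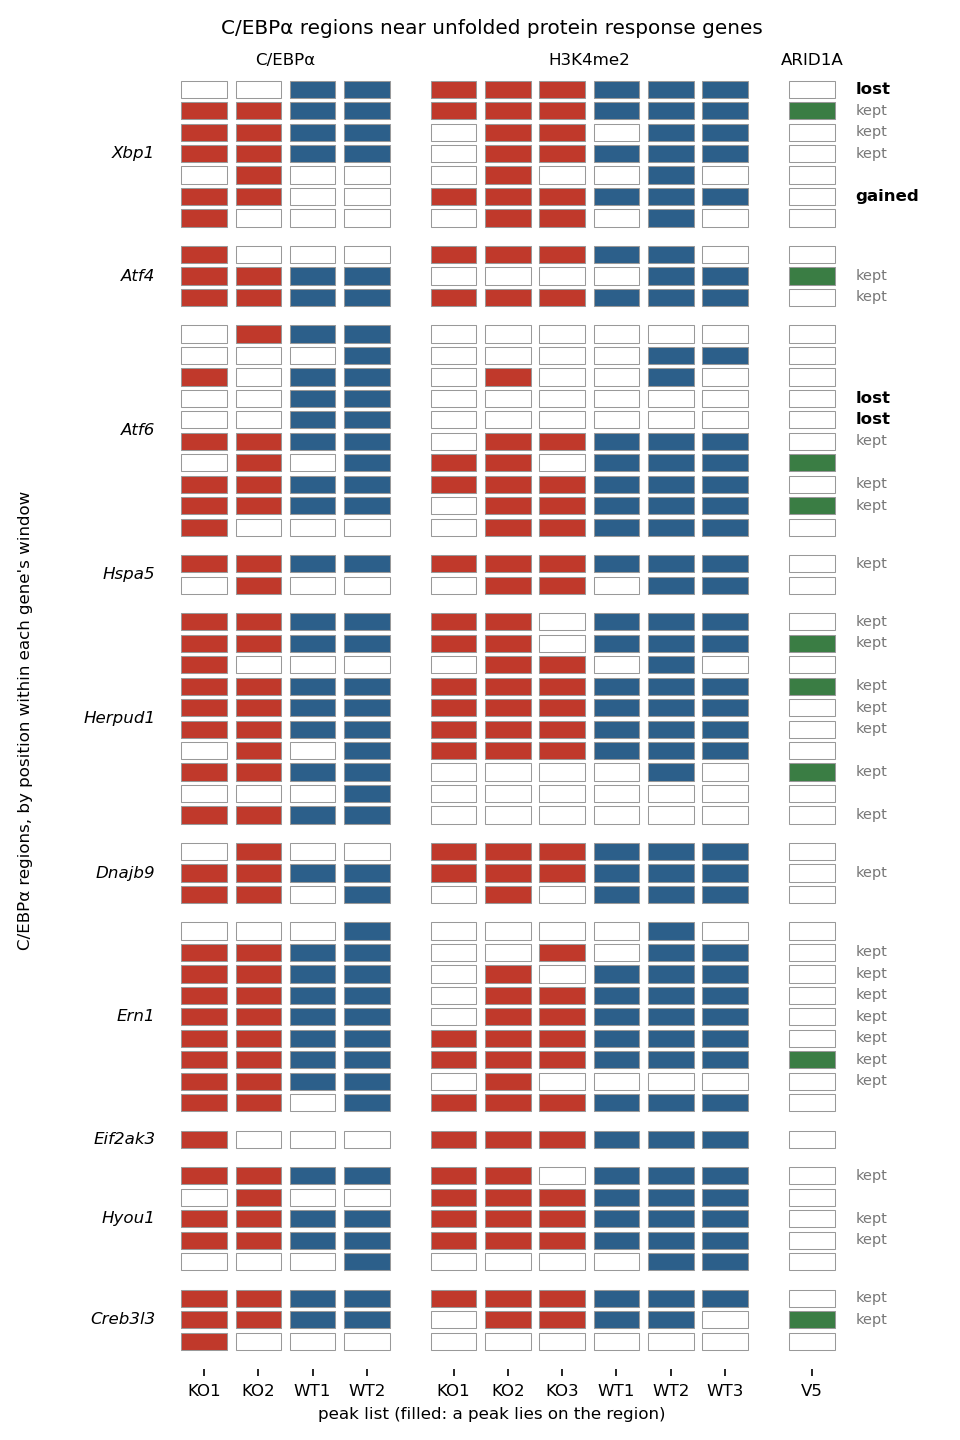
Each row is 1 of the 53 C/EBPα regions, grouped by gene and ordered by position, and each column is a peak list for C/EBPα, H3K4me2 or V5-ARID1A; a filled box marks a peak on the region. Lost and gained regions are named on the right, 3 lost at Xbp1 and Atf6 and 1 gained at Xbp1, and the 29 kept regions are spread over 9 of the 10 genes.

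By gene, 9 of the 10 members had a kept region in the window, against 38.5% of protein-coding genes. A lost region was present for 2 of the 10, Xbp1 and Atf6 (12.3% of genes), and a gained one for 1 of the 10, Xbp1 (5.89% of genes). Atf6 and Herpud1 had 10 regions each, Ern1 had 9 and Xbp1 had 7, and at least 97.0% of protein-coding genes had as many regions or fewer. Eif2ak3 had 1. The windows ran from 52.4 kb for Atf4 to 214 kb for Atf6, and region numbers are not corrected for that. The closest region outside a window was a kept one 340 bp beyond the edge at Hspa5, chr2:34801869-34802453, and the closest inside was a kept one of Herpud1, 2251 bp from its edge.

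Most members carried C/EBPα at the gene itself in both genotypes. Within 1 kb of either annotated end of the gene, called a gene end and named lower or upper by its coordinate, C/EBPα was present in all 4 lists at 6 members (Atf4, Atf6, Herpud1, Dnajb9, Ern1 and Hyou1), against 9.73% of protein-coding genes. It was gained at 1, Xbp1 (1.37% of genes), and lost at 0 of the 10 (0.64% of genes). At Hspa5 and Eif2ak3 it was present in 1 KO list and no WT list. Creb3l3 had none at its outer ends, but its internal start was occupied in all 4 lists. H3K4me2 lay at a gene end in all 6 lists at 9 members, against 51% of genes, and within 1 kb of an annotated start in all 6 lists for all 8 members that have a start with a strand.

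Ern1 (chr11:106397620-106487796, minus strand), which encodes the sensor IRE1α, had 9 C/EBPα regions, of which 7 were kept and none lost or gained. The region nearest to the start was at chr11:106488358-106489053, 562 bp upstream, with peaks of 635 and 646 bp in KO1 and KO2 and 613 and 682 bp in WT1 and WT2. Those values overlapped between genotypes. Another 4 kept regions lay within the gene body, between 4453 and 41215 bp from its nearest end, and H3K4me2 was present on each in 3 to 5 of the 6 lists. ARID1A had a peak on the kept region 5385 bp upstream and a further one inside the gene at chr11:106462298-106462537, where H3K4me2 was present in all 6 lists and C/EBPα in none.

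Eif2ak3 (chr6:70844484-70905241, plus strand), which encodes the sensor PERK, was the member with the least C/EBPα. Its single region, chr6:70843759-70844643, covered the start and carried a peak of 885 bp in KO1 and no peak in KO2, WT1 or WT2. The peak was wide for its list, at percentile 96.0 of peak width in KO1. H3K4me2 lay within 1 kb of the start in all 6 lists. In KO1 it did so as 2 flanking peaks of 1332 bp in sum, with none on the promoter window, and in the other 5 lists as 1 peak that covered the window. With 1 of 2 KO libraries showing it, the peak does not separate the genotypes.

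Atf6 (chr1:170704457-170868585), the sensor that is itself a transcription factor, had 2 of the 3 lost regions. They lay in the gene body at chr1:170802724-170803005, with peaks of 270 bp in WT1 and 282 bp in WT2, and at chr1:170839788-170840139, with peaks of 286 and 352 bp in WT1 and WT2. Neither carried H3K4me2 in any of the 6 lists or ARID1A. These peaks were narrow for their lists, at percentiles 2.72 and 6.22 of peak width in WT1 and 9.35 and 39.3 in WT2. The upper gene end, by contrast, held a kept region over the end itself, and a second kept one lay 1305 bp inside it. Between them a region with C/EBPα in KO2 and WT2 carried the ARID1A peak at chr1:170867775-170868074, 511 bp from the end. Atf6 was the only member with ARID1A within 1 kb of a gene end. A second ARID1A peak lay on the kept region 11576 bp beyond that end, which is nearest to Dusp12.

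Xbp1 (chr11:5520641-5525993, plus strand), the transcription factor activated by IRE1α, had both a gained and a lost region. The gained region lay within the gene at chr11:5521479-5521828, 838 bp past the start, with peaks of 316 and 350 bp in KO1 and KO2 and none in either WT list. H3K4me2 peaks overlapped it in all 6 lists, over 35, 350 and 226 of its 350 bp in KO1, KO2 and KO3 and over all 350 bp in each WT list. The C/EBPα peaks were narrow ones, at percentiles 15.1 and 35.4 of peak width in KO1 and KO2.

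The lost Xbp1 region lay 20972 bp upstream at chr11:5499160-5499669, with no peak in either KO list and peaks of 283 and 510 bp in WT1 and WT2. H3K4me2 peaks reached it in all 6 lists, but they ended sooner in KO libraries. In the kilobase that begins 332 bp beyond it, H3K4me2 peaks covered 221, 246 and 116 bp in KO1, KO2 and KO3, and the full 1000 bp in each of WT1, WT2 and WT3. That was 1 of the 3 bins near the members called lost for H3K4me2. Between this stretch and the gene, 3 further regions were kept. One of them, chr11:5502262-5502905, carried the only ARID1A peak of the Xbp1 window, with C/EBPα peaks of 581 and 508 bp in KO and 504 and 595 bp in WT, which overlap.

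**Figure D2:**
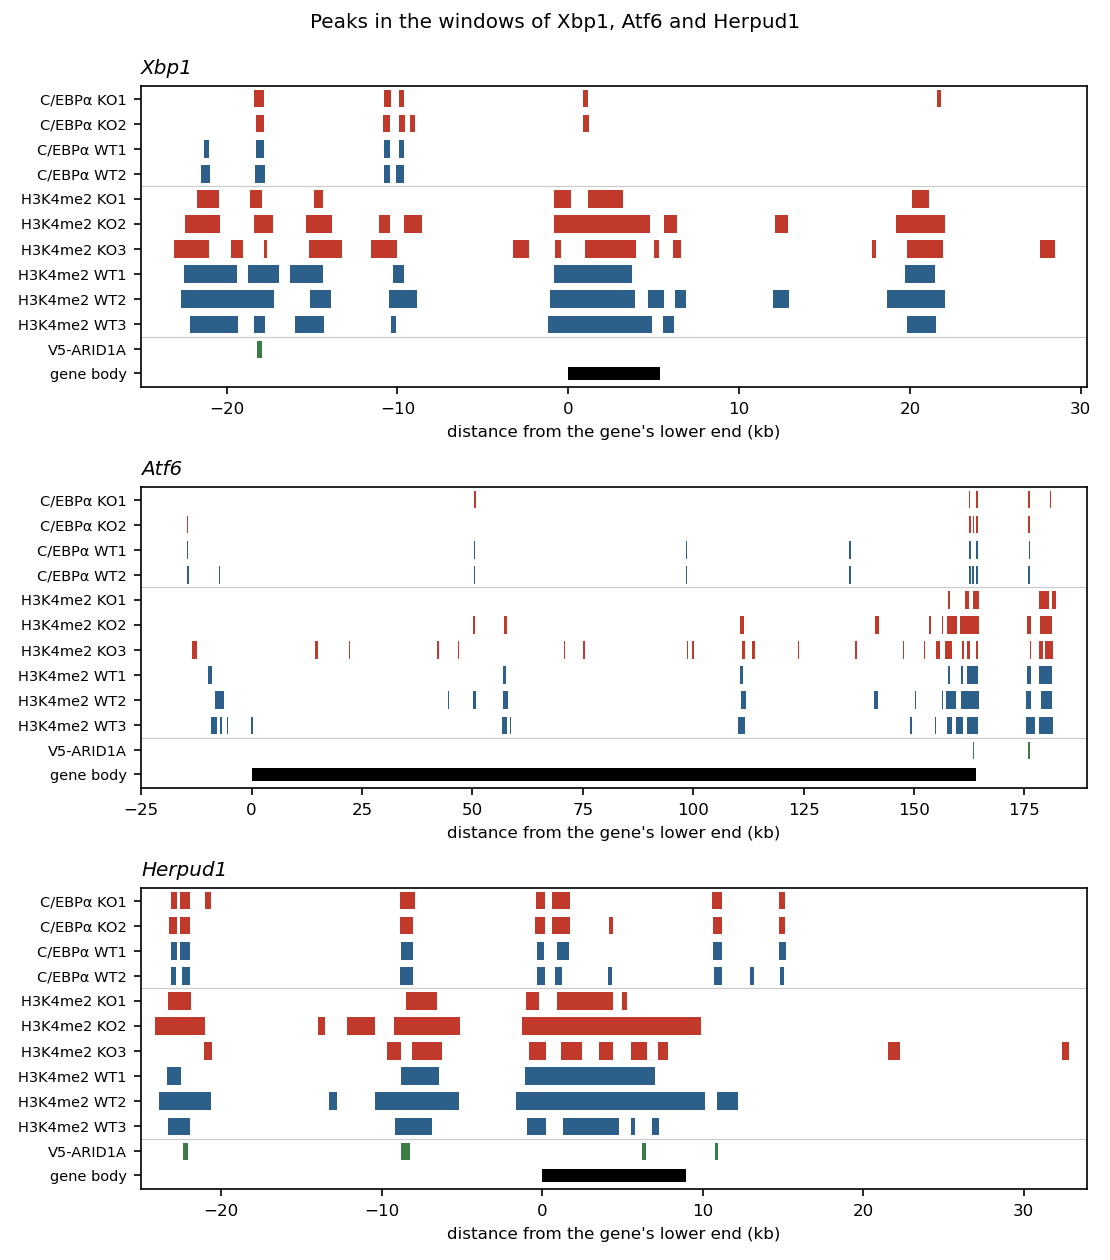
Peaks in the windows of Xbp1, Atf6 and Herpud1, drawn by distance in kb from the gene's lower end, with 1 line for each list and the gene body in black. C/EBPα peaks of Xbp1 lay inside the gene in KO lists only and near -21 kb in WT lists only, the 2 lost regions of Atf6 lay inside the gene away from its H3K4me2 cluster, and Herpud1 peaks were shared by all 4 lists at 7 places.

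Atf4 (chr15:80255184-80257545, plus strand), the transcription factor made after PERK signalling, kept a region 683 bp past its start, with 438 and 424 bp of peak in KO and 402 and 379 bp in WT. A kept region 6191 bp upstream carried C/EBPα peaks of 381 and 375 bp in KO and 293 and 330 bp in WT, together with an ARID1A peak. In both regions the KO peaks were wider than either WT peak. H3K4me2 was present on the upstream region in none of the 3 KO lists and in WT2 and WT3. A C/EBPα peak of KO1 alone lay at a gene end of Mief1, in the same window.

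Creb3l3 (chr10:81084329-81098872, minus strand), the liver-enriched ER membrane factor, was occupied at its internal annotated start. That kept region, chr10:81092373-81093228, had peaks of 854 and 783 bp in KO1 and KO2 and 673 and 772 bp in WT1 and WT2, with H3K4me2 in all 6 lists. The KO peaks were wider than both WT peaks, by 11 bp at the closest. A second kept region inside the gene carried an ARID1A peak at chr10:81094261-81094559. No list had C/EBPα or H3K4me2 within 1 kb of the gene's outer ends, the farther of the 2 annotated starts included.

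Hspa5 (chr2:34772090-34776529, plus strand), which encodes the chief ER chaperone BiP, had a kept region 1609 bp upstream of the start with peaks of 425 and 358 bp in KO and 402 and 407 bp in WT, which overlap. A peak of 407 bp over the start itself, including 241 bases of the promoter window that holds the ER stress response element, was present in KO2 and absent from KO1, WT1 and WT2. There was no ARID1A peak in the window.

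Dnajb9 (chr12:44205897-44210068, minus strand), a co-chaperone of BiP, was occupied at its start in all 4 lists. The region chr12:44209984-44210783 had peaks of 731 and 800 bp in KO1 and KO2, against 501 and 676 bp in WT1 and WT2, so that both KO peaks were the wider. Hyou1 (chr9:44379490-44392369), another ER chaperone, kept a region at its lower end with peaks of 642 and 462 bp in KO and 445 and 456 bp in WT. The lower KO value exceeded the higher WT value by 6 bp. The other 4 Hyou1 regions lay nearest to gene ends of its neighbours Slc37a4 and Trappc4, and neither Hyou1 nor Dnajb9 had an ARID1A peak in the window.

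Herpud1 (chr8:94386429-94395371, plus strand), a membrane factor of ER protein degradation, was the most densely occupied member. It had 10 regions, 7 of them kept and none lost or gained, and 4 of the 11 ARID1A peaks. At its start, chr8:94385973-94386617, peaks measured 563 and 611 bp in KO1 and KO2 and 477 and 468 bp in WT1 and WT2. The next region, chr8:94387010-94388183, which begins 581 bp past the start, had peaks of 1174 and 1146 bp in the KO lists and 706 and 430 bp in the WT lists. In KO these were at percentiles 99.2 and 99.1 of peak width, and in WT at percentiles 94.7 and 64.6. KO peaks were wider than both WT peaks in 5 of the 7 kept regions. Of the kept regions past the gene's end, the one 1617 bp away carried ARID1A with H3K4me2 in WT2 alone, and the one 5797 bp away carried no H3K4me2 in any list. One ARID1A peak, chr8:94392672-94392898 inside the gene, lay on no C/EBPα region. The kept regions 22750 and 21936 bp upstream lay nearest to a gene end of the neighbour Slc12a3, at 2543 and 1729 bp. So did the mixed region 20656 bp upstream, at 449 bp, and the ARID1A peak 22069 bp upstream, at 1862 bp.

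Peak length in the kept regions was compared next, as the number of bases under peaks in each list. In 13 of the 29 kept regions both KO lists exceeded both WT lists, against 27.7% of the 11664 kept regions genome-wide, and in 0 of the 29 were both KO lists below both WT lists, against 16% genome-wide. In the 13, the lower KO value exceeded the higher WT value by 1 bp (an Xbp1 region) to 440 bp (Herpud1 past the start). That margin was 3 bp at an Ern1 region and 5 bp at another Herpud1 region. The median difference of KO minus WT was 38.5 bp over these 29 and 17 bp over all kept regions. The median length in the 29 was 438 and 462 bp in KO1 and KO2 and 409 and 445 bp in WT1 and WT2, and over all kept regions it was 448 and 435 bp in the KO lists and 417 and 435 bp in the WT lists. The difference at Herpud1 past the start, 1160 bp in KO and 568 bp in WT on average, was the largest of the 29. The 29 regions share 9 windows and 4 libraries and are not independent, and no test was made over them.

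**Figure D3:**
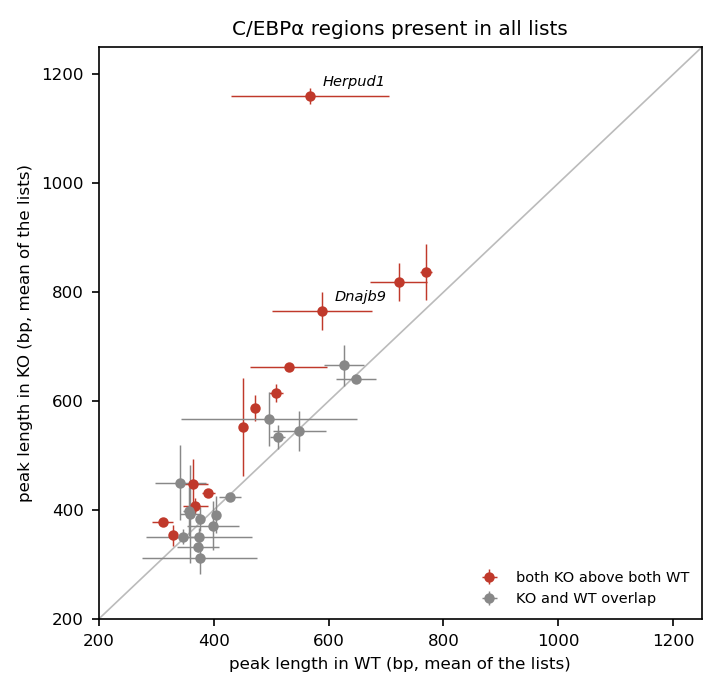
Each point is 1 of the 29 kept C/EBPα regions, with its mean peak length in bp in KO on the y axis and in WT on the x axis, lines spanning the 2 lists of each genotype, and the diagonal marking equal length. In 13 regions, in red, both KO values exceed both WT values, and the Herpud1 region at 1160 bp in KO and 568 bp in WT stands farthest from the diagonal.

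The share of each window under C/EBPα peaks gave a value for each library that could be tested. It was higher in both KO lists than in either WT list for 5 members (Atf4, Hspa5, Herpud1, Dnajb9 and Creb3l3), against 22.3% of the 12824 genes with any C/EBPα peak in the window, and lower in both for 1, Atf6, against 22.7%. Herpud1 had 8.48% and 8.41% in KO1 and KO2 and 6.64% and 6.38% in WT1 and WT2. Its means were 8.45% ± 0.0528 in KO and 6.51% ± 0.182 in WT (SD, n = 2 each), a difference of 1.94 percentage points, which exceeds the spread within either genotype. The exact permutation p, two-sided, was 0.3333, the smallest that 2 libraries against 2 allow, and 0.741 after Benjamini-Hochberg adjustment over all genes tested.

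Dnajb9 had 1.86% and 2.60% in KO and 0.925% and 1.81% in WT, so that KO1 lay close to WT2. Atf4 had 2.57% and 1.53% in KO and 1.33% and 1.35% in WT, and the KO1 value includes the peak at Mief1. In Creb3l3 and Hspa5 one KO library stood apart in the same way, with 2.36% and 1.74% in KO against 1.62% and 1.70% in WT at Creb3l3, and 0.781% and 1.41% in KO against 0.738% and 0.748% in WT at Hspa5. Atf6 had 1.02% and 0.929% in KO and 1.101% and 1.70% in WT. With peaks below the median width left out, the Atf6 difference turned to 0.209 percentage points higher in KO. Xbp1, Ern1, Eif2ak3 and Hyou1 overlapped between genotypes. The KO mean was above the WT mean in 9 of the 10 members. The median difference was 0.37 percentage points, against 0.00206 over all genes tested. These are on unlike scales, since more of the members' windows was covered. Their median share was 2.40% and 2.09% in KO1 and KO2 and 1.47% and 1.75% in WT1 and WT2. Over all genes tested it was 0.701%, 0.704%, 0.625% and 0.848% in the same lists. The members higher in every KO list numbered 8 without WT2. WT1 was the lowest of the 4 lists in 7 of the 10, and without WT1 the KO mean was above WT in 6 of the 10. Shares over all genes were not counted for these numbers of members. The test called no gene anywhere in the genome at an adjusted p of 0.05 (0 of 12824, and 0 at an unadjusted p under 0.05), since no p can fall below 0.3333.

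**Figure D4:**
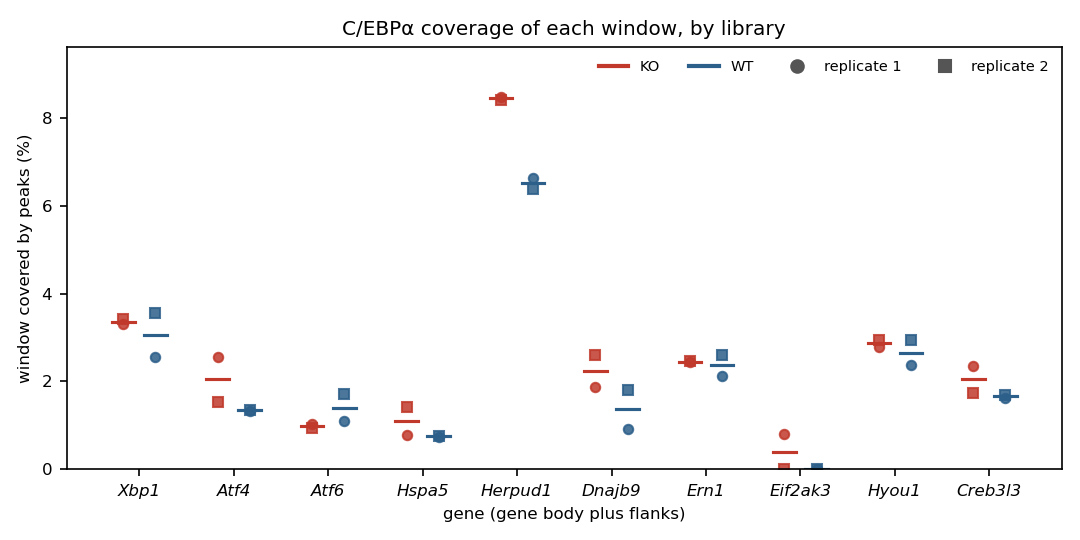
Share of each gene's window under C/EBPα peaks, in percent, with KO left of WT for each gene, a symbol for each replicate and a bar for the mean of the 2 libraries. Herpud1 sits highest, at 8.48% and 8.41% in KO and 6.64% and 6.38% in WT, and Atf6 is the member with both KO libraries below both WT libraries.

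H3K4me2 coverage separated the genotypes in none of the members' windows, and it did so at few genes anywhere in the genome. The share of the window under H3K4me2 peaks was lower in all 3 KO lists than in every WT list for 0 of the 10 members (0.682% of the 20820 genes with any peak) and higher in all 3 for 0 of the 10 (0.048%). Hyou1 had 18.1%, 26.9% and 25.5% in KO1, KO2 and KO3, against 24.9%, 29.1% and 30.7% in WT1, WT2 and WT3, a difference of -4.77 percentage points (exact permutation p = 0.3, adjusted 1). Xbp1 had 11.8%, 29.7% and 26.7% in KO and 24.9%, 34.7% and 25.01% in WT, a difference of -5.49 percentage points (exact permutation p = 0.6, adjusted 1). In both genes KO1 was the lowest list and the others overlapped.

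The KO mean was below the WT mean in 9 of the 10 members, Eif2ak3 being the exception. The median difference was -2.69 percentage points, against 0.27 over all genes tested. These are on unlike scales, since more of the members' windows was covered. Their median share was 10.9%, 23.4% and 15.9% in KO1, KO2 and KO3 and 16.9%, 27.6% and 14.4% in WT1, WT2 and WT3. Over all genes tested it was 2.10%, 6.27% and 5.88% in KO and 3.49%, 6.51% and 3.585% in WT. KO1, the list that covers the least of the genome, was the lowest of the 6 in all 10. Without KO1 the KO mean was below WT in 4 of the 10, and without WT2 in 5 of the 10. Shares over all genes were not counted for these numbers of members. The libraries were also paired by replicate number, a pairing taken from these same data and not from the labels, and it is uncertain. For numbers 1, 2 and 3, KO was below WT in 10, 8 and 3 of the 10 members. Over the 20820 genes the shares were 75.4%, 47.6% and 15.7%. KO was below in every pair for 3 members, Atf6, Hspa5 and Hyou1, against 9.13% of genes. For each of them the exact sign-flip p over 3 pairs was 0.25, the smallest it can be. No gene in the genome passed an adjusted p of 0.05 (0 of 20820 by exact permutation, and 0 at an unadjusted p under 0.05), since 3 libraries against 3 cannot go below 0.1.

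**Figure D5:**
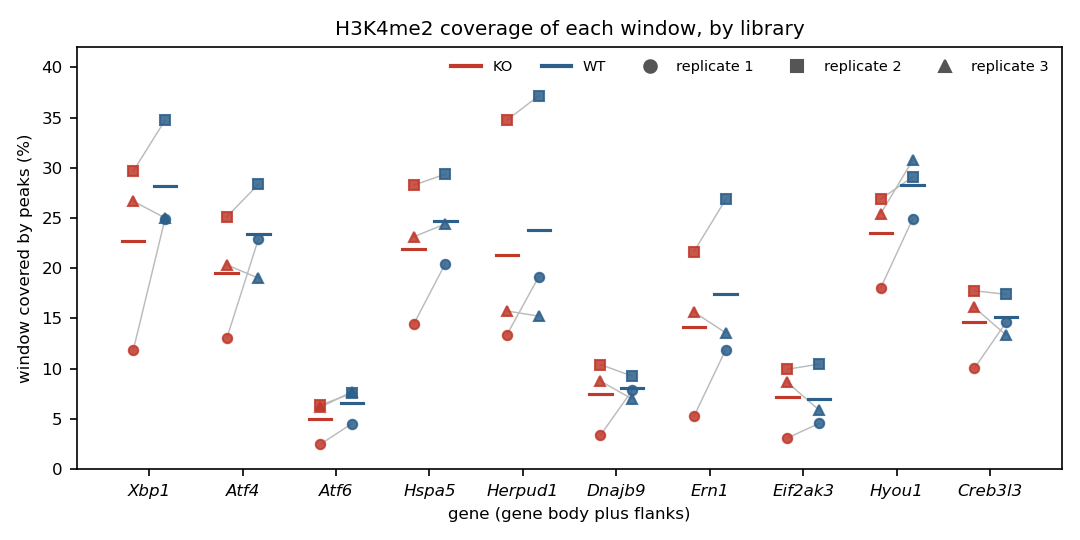
Share of each gene's window under H3K4me2 peaks, in percent, with KO left of WT, a symbol for each replicate, a bar for the mean of the 3 libraries and grey lines joining equal replicate numbers. KO1 is the lowest point for every gene, and in no gene do the 3 KO points lie wholly below or above the 3 WT points.

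The H3K4me2 peaks around the starts varied between libraries, and the library with the shortest sum differed from gene to gene. At Dnajb9 they summed to 1342, 3889 and 1855 bp in KO1, KO2 and KO3, with none on the promoter window in KO1, and to 3316, 3961 and 3066 bp in WT1, WT2 and WT3. At Hspa5 the H3K4me2 peaks within 1 kb of the start summed to 5994, 8041 and 5545 bp in KO1, KO2 and KO3 and to 6620, 8145 and 7199 bp in WT1, WT2 and WT3. At Xbp1 they summed to 1017, 5618 and 3396 bp in KO and to 4606, 4994 and 6072 bp in WT, and at Herpud1 to 4267, 11133 and 1028 bp in KO and to 8071, 11730 and 1183 bp in WT. The promoter window was also without H3K4me2 at Hspa5 in KO1 and WT1 and at Xbp1 in KO3. In each of these 4 genes the KO and WT values overlapped, and peaks at a start are split differently from list to list.

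At a finer scale, 870 bins of 1 kb lie in the windows, and 500 bp or more under H3K4me2 peaks make a bin marked. All 6 lists marked 48 bins. Of the 84 bins marked in all 3 WT lists, 3 were marked in no KO list, against 2.01% of such bins genome-wide, and of the 50 marked in all 3 KO lists, 0 were unmarked in all WT lists, against 0.175%. The 3 lost bins were the one near the lost C/EBPα region of Xbp1, one 3184 bp upstream of Atf4 and one in the gene body of Atf6. The Atf4 bin had 0, 407 and 354 bp of peak in KO and 655, 627 and 1000 bp in WT, and lay 2008 bp from the kept C/EBPα region that carries ARID1A. In the Atf6 bin the values were 0, 424 and 0 bp in KO and 582, 554 and 942 bp in WT. The lost C/EBPα regions of Atf6 lay elsewhere in the gene. Without KO2 the lost bins numbered 13, and without WT1 they numbered 7.

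On the 29 kept C/EBPα regions themselves, H3K4me2 was present at 16, 25 and 21 in KO1, KO2 and KO3 and at 23, 27 and 25 in WT1, WT2 and WT3. All 6 lists marked 13 of them, and 1 was marked by none. The same shares over all kept regions of the genome were not counted, and the lists differed widely in coverage. No contrast between genotypes is drawn from these numbers. Within 1 kb of a start, the peak with the highest of the authors' deposited −log10 q was ranked within each list. At Herpud1 it stood at percentiles 99.2, 79.8 and 98.2 in KO and 64.7, 82.1 and 97.6 in WT. Those peaks were unlike in length, at width percentile 48.1 in KO1 and 99.3 in WT1. At Xbp1 the ranks were 85.2, 82.4 and 92.6 in KO and 83.7, 94.9 and 91.3 in WT. KO and WT ranks overlapped at both genes.

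ARID1A had 11 peaks in the windows of 6 members (Xbp1, Atf4, Atf6, Herpud1, Ern1 and Creb3l3), against 20.2% of protein-coding genes with a peak in the window. Of these peaks, 9 lay on a C/EBPα region, against 82.9% of all 5726 ARID1A peaks, and 8 of the 9 on a kept one. Of the 29 kept regions 8 carried ARID1A, against 30.9% of kept regions genome-wide, which is close to the genome's share. None of the 3 lost regions and not the gained region carried an ARID1A peak. The genome-wide share for lost and gained regions was not counted, so no contrast with kept regions is drawn. The peak at Herpud1 8266 bp upstream of the start was the widest of the 11, at 537 bp and percentile 95.3 of its list, and it lay on a kept C/EBPα region with peaks of 889 and 785 bp in KO and 760 and 780 bp in WT. Because ARID1A was mapped in 1 library, these positions have no replicate check.

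A wider list of 54 other genes of the response, among them targets of the PERK branch, protein disulphide isomerases and ER degradation factors, was counted in the same way. C/EBPα lay at a gene end in all 4 lists for 17 of the 54 (9.73% of all protein-coding genes), was gained at 1 (1.37%) and lost at 0 (0.64%), and H3K4me2 lay at a gene end in all 6 lists for 51 (51% of all genes). The gained one was Ppp1r15a, which encodes the phosphatase subunit GADD34 that reverses PERK signalling on translation. Its region at chr7:45525991-45526567 had peaks of 487 and 577 bp in KO1 and KO2 and none in WT, and lies nearest to a gene end of its neighbour Plekha4. The same window also held a lost region, chr7:45535713-45536067, with no peak in KO and peaks of 330 and 355 bp in WT1 and WT2. In the 54 windows 160 regions were found, of which 73 were kept, 14 of the 97 in both WT lists were lost (19.3% genome-wide) and 7 of the 94 in both KO lists were gained (5.27% genome-wide). ARID1A had a peak in the window of 21 of the 54 genes (20.2% of all genes).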

How the data were processed

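Peak lists of 11 libraries were analysed, and the 10 input samples were not analysed here. Per the submitters' processing notes, the tools were MACS2 2.0.10.20131216, Bowtie2 2.2.3, HOMER and Picard with build mm10, without stated roles, and each list is of 1 library. The deposited C/EBPα and V5 lists hold positions only, and their peak names are numbered with gaps, so that the peaks present make up 40.01% to 40.07% of that numbering. The way they were selected was not given. The H3K4me2 lists carry, as deposited by the authors, a fold over background (a ratio), a score and −log10 p and q values for each broad peak. Only the authors' −log10 q was used. Because it depends on depth, it was used to rank peaks within a list. It also gave a stricter threshold, the median of all H3K4me2 lists pooled (1.88), which fell unequally on the lists. A peak at 1.88 stood at percentile 88.2 in KO3, and in WT3 a peak at 2.15 stood at percentile 39.4. The score and fold were not used in any comparison.

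The members and gene lists were chosen with earlier results of these data known. All 10 members are named, and of the 54 other genes of the response only those with a gained or lost C/EBPα gene end. Genes and promoters came from the RefSeq tables of GRCm38.p6, which give gene bodies without exons, so exonic and intronic positions were not separated. Covered shares were compared by two-sided exact permutation over libraries for all genes with a peak in any list, adjusted by the Benjamini-Hochberg method. Genes with no peak in any list were left out. Region classes, covered length, peak overlaps and the exact permutation p were tested on simulated data, and the other steps were not. The software was Python 3.11.15, NumPy 2.4.6, SciPy 1.17.1 and Matplotlib 3.10.9. Alternatives were other flanks, overlaps, peak thresholds and scalings, leaving out each library, and a replicate block.

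Deviations from the group means correlated between same-numbered H3K4me2 libraries at 0.701, 0.847 and 0.425 over genes, so these numbers were taken to pair the libraries, from the data and not from the labels. Some different numbers also correlated, KO1 with WT3 at 0.694 and KO3 with WT1 at 0.33, so the pairing is uncertain. For C/EBPα the correlation was 0.0146, and the numbers were not taken to pair them.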

Additional observations from a re-analysis of the deposited data

How the results depend on the processing

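With C/EBPα peaks below the pooled median width left out, 13 regions were kept and 1 was lost, and the number of windows lower in both KO lists went to 0. With the same number of the widest peaks from each list, 1 region was lost and 4 were gained. Windows higher in both KO lists numbered 3 with flanks of 50 kb and 8 when coverage was divided by that of the genome. Bins marked by any base gave 101 kept, and the same number of highest-ranked H3K4me2 peaks gave 1 lost bin. ARID1A peaks at or above the median width numbered 4. Leaving out each library gave 3 to 7 lost, 1 to 7 gained and 29 to 31 kept C/EBPα regions, with the 7 lost regions without WT1 and the 7 gained without KO2. It gave 3 to 13 lost, 0 to 1 gained and 48 to 63 kept bins, with 13 lost without KO2, 7 lost without WT1 and 1 gained without KO1. Windows higher in both KO lists for C/EBPα then numbered 5 to 8 (8 without WT2) and windows lower 1 to 3 (3 without WT1), and for H3K4me2 lower ones numbered 0 to 2 (2 without WT1). The other alternatives left each count within 1.5 times its value.

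The difference in C/EBPα coverage (KO minus WT) changed sign at Ern1 with flanks of 10 kb (-0.0735 percentage points), and at Xbp1 (-0.518) and Atf6 (0.209) with the narrower peaks left out. For H3K4me2 it changed sign at Eif2ak3 with the stricter peaks (-1.76) and relative to the genome (-0.0888 on that scale). The stricter threshold left out most KO3 peaks. Leaving out 1 library changed the sign at several genes. For C/EBPα the lowest and highest values, in percentage points and without WT1 and WT2, were -0.201 and 0.817 at Xbp1, -0.161 and 0.315 at Ern1, and -0.074 and 0.499 at Hyou1. For H3K4me2, without KO2 and KO1, they were -5.98 and 0.951 at Hspa5, -1.96 and 1.55 at Dnajb9, -1.09 and 2.33 at Eif2ak3, and -2.06 and 1.81 at Creb3l3, and without KO2 and WT2 they were -9.28 and 4.1 at Herpud1 and -6.99 and 1.46 at Ern1. The cause was not tested.

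With the replicate block, 3 members were below WT for H3K4me2 in every pair and 6 were above WT for C/EBPα in every pair, against 5 without it. It changed no other call. Depth is unknown, and 2 or 3 libraries in each genotype limit every test.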
